A study of Drosophila melanogaster with 17 samples.

Results

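The effect of knocking down ChREBP in the larval fat body on a control diet was measured by RNA sequencing in Drosophila melanogaster. Knockdown libraries 1 to 3 were compared with wild-type libraries 1 to 3, which makes 6 of the 17 libraries of the series. Replicates 1 to 3 of each group carry 1 barcode per group in the labels, whereas wild-type replicates 4 to 6 carry a barcode each. The comparison was therefore kept to replicates 1 to 3. With 1 barcode per group, an effect of the barcode cannot be told apart from the knockdown. Every one of the 14659 genes in the matrix was a candidate, and the 2383 with a mean of at least 1 FPKM (sequenced fragments scaled to transcript length and to library size) over the 17 libraries were tested.

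Knockdown larvae carried UAS-ChREBPi(52606), cgGAL4 and UAS-Dcr2, and wild-type larvae carried cgGAL4 and UAS-Dcr2 in the VDRC w1118 background. Both groups were female, were taken when wandering at the end of the last larval instar, and had eaten food with 0.15 M sucrose since hatching. Both therefore carried the driver and the Dicer-2 transgene, which strengthens RNA interference, and the knockdown differed by the interference construct. The knockdown rests on 1 interference line, no group with a construct against an unrelated gene was analysed here, and 1 label field calls the knockdown tissue mutant. The driver cgGAL4, taken from a collagen gene, is active in the fat body and also in blood cells. The same 2 genotypes on food with 0.7 M sucrose (2 knockdown and 3 wild-type libraries, 1 barcode per group) are used at the end for comparison.

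ChREBP is the sugar-sensing transcription factor of the Mondo family, and its fly gene appears under the symbol dmondo. The protein binds DNA with a partner of the Max family, Mlx in mammals and Bigmax in flies, when phosphorylated sugars accumulate in the cell. In liver and fat body it is known for switching on enzymes of glycolysis and fat synthesis after a sugar meal, partly through secondary factors such as Sugarbabe and Cabut. The fat body stores fat and glycogen and secretes most blood proteins of the larva, so it serves as both liver and adipose tissue.

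The libraries carried a strong fat body signature. The 11 fat body genes on the marker list, the larval serum proteins among them, summed to 8900, 7870 and 9220 FPKM in knockdown libraries, against 8497, 9813 and 9395 FPKM in wild-type libraries. Column totals were 47618.4 to 51306.9 in knockdown and 48416.1 to 53148.4 in wild type, and 7207 to 7437 genes were above 0 in knockdown against 7945 to 8040 in wild type. Spearman correlations over genes were 0.853 to 0.922 between libraries of 1 group and 0.792 to 0.872 between groups, so the groups were not cleanly separated by this measure. The labels call the replicates biological but do not say whether larvae were pooled.

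The target of the knockdown was lower in each knockdown library than in any wild-type library. The value of dmondo was 0.310, 0.535 and 0.471 FPKM in knockdown, against 1.6, 1.83 and 1.70 FPKM in wild type, and the wild-type libraries with their own barcodes gave 1.31, 1.26 and 1.1 FPKM. The knockdown mean was 0.439 ± 0.116 FPKM and the wild-type mean 1.71 ± 0.114 FPKM (SD, n = 3 each), a ratio of 0.257. On the log2(FPKM + 1) scale, which understates changes of low genes, dmondo fell by 0.91 ± 0.10 (standard error, limma, adjusted p = 3.99e-05). An exact permutation test of the values gave a two-sided p of 0.1, the smallest that 3 against 3 allows. The annotation places Gr39a over dmondo, but Gr39a was listed at 0 in each of the 6 libraries. Among the 4 genes on either side, cryptocephal (a transcription factor of the stress response) was the one with a level high enough to be tested, and it was not called (log2 change -0.38, adjusted p = 0.213).

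The other members of the Mondo network were low in these fat bodies. Of its 5 tested members 3 fell and none rose, where 6.55% of all tested genes fell. Since 1 of the 3 was dmondo, the target of the knockdown, its fall is not a result about the network. The gene of the zinc finger factor Sugarbabe had 0.151, 0 and 0.234 FPKM in knockdown, against 0.893, 0.613 and 1.23 FPKM in wild type, without overlap (log2 change -0.75 ± 0.21, adjusted p = 0.0399). The gene of Cabut (cbt), a repressor induced by Mondo, had 0.555, 0.659 and 0.930 FPKM in knockdown, against 2.00, 1.52 and 1.66 FPKM in wild type (-0.67 ± 0.19, adjusted p = 0.0417). Both falls were close to the threshold: the cbt call was lost whichever of the 6 libraries was left out (adjusted p up to 0.12), and the sugarbabe call held only without wild-type replicate 2 (0.17 without wild-type replicate 3). The partner gene bigmax had 0.941, 0.680 and 0.445 FPKM in knockdown and 0.854, 0.774 and 1.1 FPKM in wild type, and these values overlapped (-0.18 ± 0.13, adjusted p = 0.456).

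Of the genes that serve the interference itself, Dcr-2 differed between the groups although both carried the UAS-Dcr2 transgene. Dcr-2 had 129, 120 and 146 FPKM in knockdown, against 60.7, 53.9 and 50.3 FPKM in wild type and 81.0, 75.4 and 66.7 FPKM in wild type with own barcodes. This rise of 1.24 ± 0.18 (log2, adjusted p = 0.000521) held in every alternative that was run. The Argonaute genes AGO1 (-0.06) and AGO2 (0.04) were not called, nor was the collagen gene Cg25C (-0.11), whose regulatory region drives cgGAL4. The eye colour gene white, used as a transgene marker and too low to be tested, had 1.05, 0.793 and 0.558 FPKM in knockdown and 0.225, 0.267 and 0.328 FPKM in wild type. Whether more Dicer-2 contributes to the changes below was not tested.

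Across the tested genes 239 of 2383 changed (10.0%), 83 upward (3.48%) and 156 downward (6.55%). These shares are the background for the counts of list members below. The median log2 change of all tested genes was -0.06, with 1008 changes above and 1375 below 0. Large changes were few: 31 rises and 51 falls passed 1 on the log2 scale. The count depended on single libraries, with 120 calls without wild-type replicate 3, 156 without knockdown replicate 3 and 303 without knockdown replicate 1. In each of the 6 fits that left out 1 library, 103 of the calls (43 up and 60 down) were kept, and 42 (26 up and 16 down) passed in every alternative in which they were tested.

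**Figure D1:**
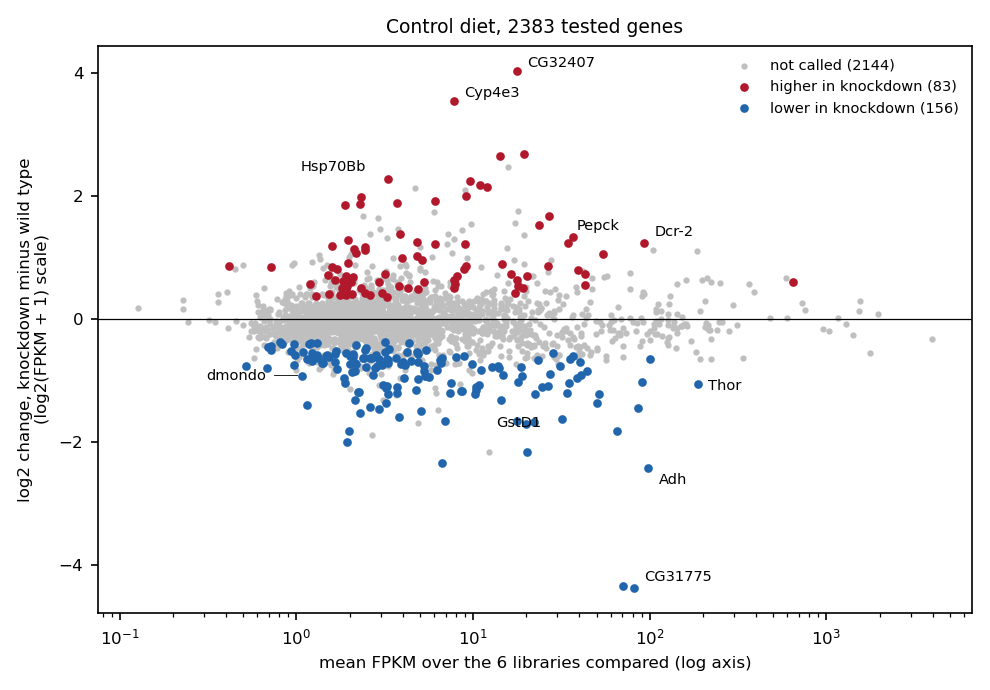
Log2 change (knockdown minus wild type, on the log2(FPKM + 1) scale) against the mean FPKM of the 6 libraries compared (log axis) for the 2383 tested genes, with the 83 called rises in red and the 156 called falls in blue. The largest changes, CG32407 at 4.03 and CG31775 at -4.36, stand well apart from the rest, and dmondo lies at the low end of expression.

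The 12 largest rises among well-expressed genes were each seen in every knockdown library and lay above all 6 wild-type libraries, own barcodes included, as did 7.51% of all tested genes. First was CG32407, a gene without a known role, with 34.2, 37.4 and 30.6 FPKM in knockdown, against 1.00, 1.21 and 1.25 FPKM in wild type. Its mean was 29.6 times that of wild type (log2 change 4.03 ± 0.16, adjusted p = 1.16e-09). Cyp4e3, a cytochrome P450 of the fatty acid hydroxylating CYP4 family, had 11.9, 10.0 and 23.8 FPKM in knockdown, against 0.346, 0.301 and 0.275 FPKM in wild type (3.54 ± 0.41, adjusted p = 0.000106). In wild type Cyp4e3 was near silent and CG32407 was low, and both genes reached moderate levels in each knockdown library. They passed the minimum mean of 5 FPKM only through their knockdown values, as did several of the rises below.

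Among the other large rises were genes of metabolic enzymes and transporters. The sugar transporter gene CG10960 (nebu) had 22.5, 15.9 and 17.1 FPKM in knockdown, against 3.06, 3.92 and 2.93 FPKM in wild type (log2 change 2.17 ± 0.19). Miox (listed as CG6910), the enzyme that opens the ring of myo-inositol, had 55.7, 34.3 and 70.5 FPKM in knockdown, against 19.2, 19.4 and 20.4 FPKM in wild type (1.34 ± 0.25). The glutathione transferase gene GstD3 had 15.4, 24.0 and 20.9 FPKM in knockdown, against 3.72, 3.56 and 3.85 FPKM in wild type (2.14 ± 0.18). In these genes the wild-type libraries agreed closely and the knockdown libraries spread more widely, while the lack of overlap was a condition of the choice.

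The peroxiredoxin gene Prx2540-1, whose product removes peroxides, had 10.9, 19.8 and 14.7 FPKM in knockdown, against 3.06, 3.27 and 2.56 FPKM in wild type (log2 change 1.99 ± 0.18). The related CG12896 followed it library by library, with 7.88, 13.6 and 9.30 FPKM in knockdown and 2.17, 1.78 and 1.82 FPKM in wild type (1.92 ± 0.16). Since related peroxiredoxin genes are near copies, their reads may not be fully separated. The gene of the mitochondrial matrix protein P32 (CG6459) had 17.4, 28.9 and 29.4 FPKM in knockdown, against 3.49, 3.32 and 2.54 FPKM in wild type (2.64 ± 0.43).

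The remaining rises had no role that could be given with certainty. CG4716 (log2 change 2.68), CG18473 (2.24), a predicted gene with no CG number (1.68) and Kaz1-ORFB (1.53, overlapped by pyx and Kaz1-ORFA) completed the 12, with adjusted p values up to 0.00337. In these 4 genes too the knockdown libraries lay clear of the wild-type ones, as the choice of genes required for replicates 1 to 3. All 12 calls survived the removal of any 1 library, and all but Miox passed in every alternative.

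**Figure D2:**
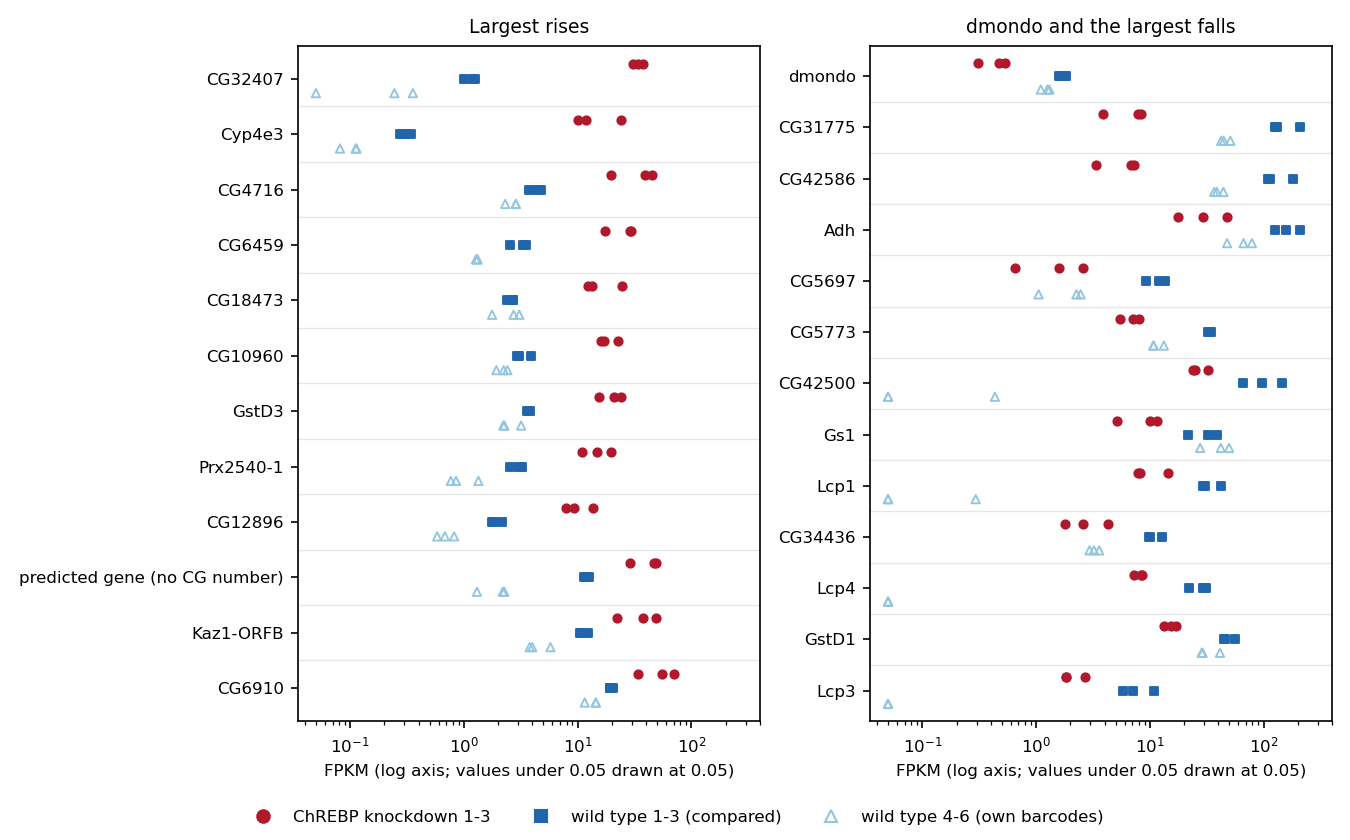
FPKM (log axis) in each control-diet library for the 12 largest rises (left) and for dmondo with the 12 largest falls (right): red circles are knockdown 1 to 3, blue squares wild type 1 to 3, and open triangles wild type 4 to 6 with own barcodes. Red and blue symbols do not overlap in any row, which for the rises and falls was a condition of the choice. The triangles lie on the wild-type side for all 12 rises. They lie among or below the red circles for CG42500, Lcp1, Lcp3, Lcp4, CG5697 and CG34436, and 1 triangle is among the circles for Adh.

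The largest falls were of CG31775 and CG42586, genes without a known role that both lie on chromosome arm 2L. CG31775 had 3.87, 7.90 and 8.44 FPKM in knockdown, against 127, 208 and 131 FPKM in wild type, 23.1 times as much (log2 change -4.36 ± 0.27, adjusted p = 8.89e-08). CG42586 had 3.37, 6.88 and 7.33 FPKM in knockdown, against 110, 180 and 114 FPKM in wild type (-4.33 ± 0.27). The values of the pair keep nearly the same ratio in each library, so it is uncertain whether they report 2 genes or 1. Wild-type libraries with own barcodes had lower values of CG31775, at 44.7, 42.4 and 51.1 FPKM, still above each knockdown library.

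Alcohol dehydrogenase (Adh), an abundant fat body enzyme that oxidises dietary alcohol, had 17.8, 48.2 and 29.2 FPKM in knockdown, against 127, 208 and 157 FPKM in wild type. Its fall of 2.41 ± 0.35 on the log2 scale (adjusted p = 0.000574) held in every alternative, although wild-type replicate 5, at 47.8 FPKM, lay inside the knockdown range. Adh shares its locus with osp and Adhr, so reads of these genes cannot be fully told apart. CG5773, with no known role, had 5.50, 7.15 and 7.97 FPKM in knockdown, against 32.5, 33.9 and 34.7 FPKM in wild type (log2 change -2.15 ± 0.18).

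Glutamine synthetase 1 (Gs1), which fixes ammonia into glutamine, had 11.6, 10.0 and 5.15 FPKM in knockdown, against 32.3, 21.5 and 38.8 FPKM in wild type (log2 change -1.71 ± 0.28, adjusted p = 0.00139). Another detoxifying gene of the delta class, GstD1, had 13.3, 15.5 and 16.8 FPKM in knockdown, against 46.0, 55.8 and 44.9 FPKM in wild type (-1.62 ± 0.20), opposite to its family member GstD3. Both falls held in every alternative, and own-barcode wild-type libraries stayed above the knockdown values for both genes.

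The other 6 large falls, of CG5697 (log2 change -2.33), CG42500 (-1.82), Lcp1 (-1.67), CG34436 (-1.66), Lcp4 (-1.65) and Lcp3 (-1.49), did not lie below all 6 wild-type libraries, as 5.46% of all tested genes did. Lcp1, Lcp3 and Lcp4 encode larval cuticle proteins, products of the epidermis. Wild-type libraries with own barcodes lay within or below the knockdown range for all 6; Lcp3 and Lcp4 were listed at 0 in each of them. The call for CG5697 was lost without wild-type replicate 1, wild-type replicate 3 or knockdown replicate 3 (adjusted p up to 0.094), that for CG42500 without any of wild-type replicates 2 and 3 and knockdown replicates 2 and 3 (up to 0.099), and that for Lcp1 without wild-type replicate 2 or knockdown replicates 2 or 3 (up to 0.068).

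Lipid genes, the best-known targets of ChREBP, changed little as a group on the control diet. Of 11 tested genes of fatty acid synthesis, 1 fell and none rose, beside 6.55% and 3.48% of all tested genes. Their median log2 change was 0.02, beside -0.06 over all tested genes. The fall was of desat1, the stearoyl-CoA desaturase, with 5.00, 8.26 and 6.53 FPKM in knockdown and 11.6, 20.7 and 12.9 FPKM in wild type (-1.06 ± 0.31, adjusted p = 0.0469). This call was lost without wild-type replicate 2 or 3 or knockdown replicate 1 or 3 (adjusted p up to 0.16). Fatty acid synthase (CG3523, FASN1), which builds palmitate, had 0.522, 1.23 and 0.952 FPKM in knockdown and 1.90, 3.33 and 1.23 FPKM in wild type; it did not pass (-0.69 ± 0.25, adjusted p = 0.11).

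Among 9 tested genes of triglyceride assembly and lipid droplets, 8 had negative changes, none of them called. These included glycerol-3-phosphate dehydrogenase (Gpdh, log2 change -0.61, adjusted p = 0.0853) and the droplet coat protein Lsd-1 (-0.43, adjusted p = 0.234). The 1 call was a rise of Pect, which makes CDP-ethanolamine for phosphatidylethanolamine, with 21.7, 19.5 and 21.04 FPKM in knockdown and 12.7, 12.8 and 10.9 FPKM in wild type (0.73 ± 0.13, adjusted p = 0.00308). Fat release was represented by 5 lipolysis genes. Beside 3.48% rises over all tested genes, 1 of the 5 was called, brummer (bmm), the triglyceride lipase of the droplet surface. It rose to 6.77, 5.58 and 8.21 FPKM in knockdown, against 2.78, 3.09 and 2.56 FPKM in wild type (1.03 ± 0.15, adjusted p = 0.000517), in every alternative.

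Of 24 tested genes of fatty acid oxidation 23 had negative changes, with a median of -0.28, and 3 fell; over all tested genes 1375 of 2383 were negative and 6.55% fell. Etf-QO (CG12140), which passes electrons from fatty acid oxidation to ubiquinone, had 0.675, 0.839 and 0.620 FPKM in knockdown and 1.70, 1.38 and 1.94 FPKM in wild type (log2 change -0.64 ± 0.13, adjusted p = 0.00558). The calls for the acylcarnitine carrier gene colt (-1.31) and the electron transfer flavoprotein gene wal (-0.53) were lost without wild-type replicate 3 or knockdown replicate 3 (adjusted p up to 0.18). Without wild-type replicate 2 the wal call was lost too, and without wild-type replicate 1 or either other knockdown library that for colt.

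Glycolytic genes were mostly lower in knockdown than in wild type 1 to 3, with negative changes in 9 of 10 tested genes. No test of the group was run. Of 10 tested genes 4 fell and none rose, beside 6.55% and 3.48% of all tested genes, and the median log2 change was -0.51. In 6 of the 10 the knockdown values lay below wild type 1 to 3 without overlap (13.9% of all tested genes). Summed over the list, knockdown libraries had 40.3, 54.3 and 33.6 FPKM and wild type 1 to 3 had 62.9, 77.6 and 75.1 FPKM. Own-barcode wild-type libraries, at 54.6, 45.5 and 49.4 FPKM, overlapped the knockdown sums. Their column totals were also lower, at 29778.6 to 33180.5. Glyceraldehyde-3-phosphate dehydrogenase 2 (Gapdh2) had 5.17, 7.11 and 4.64 FPKM in knockdown, against 10.1, 21.2 and 13.2 FPKM in wild type (-1.21 ± 0.23, adjusted p = 0.00411). Pyruvate kinase (PyK), which makes pyruvate in the last step, had 0.448, 0.480 and 0.341 FPKM in knockdown, against 0.915, 0.984 and 1.15 FPKM in wild type (-0.50 ± 0.10, adjusted p = 0.00555). These falls survived the removal of any 1 library, but in a fit of the 6 libraries alone neither was called (adjusted p 0.0694 for Gapdh2 and 0.0885 for PyK). Gapdh2 was also not called with all wild-type libraries, with or without a barcode term (up to 0.188). The falls of glucose-6-phosphate isomerase (Pgi, -0.79) and triosephosphate isomerase (Tpi, -0.69) were less firm. Both were lost without wild-type replicate 2 or 3 or knockdown replicate 3 (adjusted p up to 0.12). That of Pgi was also lost without knockdown replicate 1 (0.057). Neither was called in the fit of the 6 libraries alone or with all wild-type libraries, with or without a barcode term.

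Around glycolysis the changes went both ways. Phosphoenolpyruvate carboxykinase (Pepck), which opens gluconeogenesis and glyceroneogenesis, had 54.1, 54.4 and 38.0 FPKM in knockdown, against 18.1, 18.3 and 23.3 FPKM in wild type (log2 change 1.24 ± 0.22, adjusted p = 0.00216). Own-barcode wild-type libraries had 42.1, 37.0 and 21.98 FPKM, which overlapped the knockdown values at replicate 4, and with all 6 wild-type libraries and no barcode term the change was 0.90 and was not called (adjusted p = 0.187). Of the pyruvate dehydrogenase complex, the acetyltransferase gene muc (CG5261) fell (-0.58 ± 0.09), and the shared dehydrogenase subunit CG7430 did so less firmly (-0.37, lost without wild-type replicate 2 or 3 or knockdown replicate 3, adjusted p up to 0.12). In all, 1 of 9 tested genes of gluconeogenesis and pyruvate use rose and 2 fell, beside 3.48% and 6.55% of all tested genes.

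Isocitrate dehydrogenase (Idh), a source of cytosolic NADPH, had 18.4, 9.76 and 10.9 FPKM in knockdown, against 3.52, 6.24 and 5.05 FPKM in wild type (log2 change 1.21 ± 0.22, adjusted p = 0.00283). It was the 1 rise among 8 tested genes of the pentose phosphate pathway and NADPH supply. Over all tested genes 3.48% rose and 6.55% fell. The 1 fall, of phosphogluconate dehydrogenase (Pgd, -0.44), just met the threshold (adjusted p = 0.0499) and held in 2 of 18 alternatives. Of 9 tested genes of trehalose, glycogen and sugar transport, nebu rose, while the glycogen branching enzyme AGBE (CG33138, -0.75 ± 0.15) and the sugar transporter sut1 (-0.59 ± 0.13) fell. The sut1 call was lost by a small margin without wild-type replicate 2 or 3 (adjusted p up to 0.053).

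The TCA cycle list had 2 falls among 12 tested genes and a median of -0.04, where 6.55% of all tested genes fell. Mitochondrial aspartate aminotransferase (Got2), part of the malate-aspartate shuttle, had 5.97, 7.17 and 5.59 FPKM in knockdown, against 12.6, 13.4 and 17.8 FPKM in wild type (log2 change -1.1 ± 0.15, adjusted p = 0.000269). Its cytosolic partner malate dehydrogenase Mdh1 (CG5362) fell less firmly (-0.69, lost without wild-type replicate 2 or 3 or knockdown replicate 3, adjusted p up to 0.17). None of 26 nuclear genes of the respiratory chain and ATP synthase was called. The 13 tested genes of the mitochondrial genome, a list added after the values were seen, were all higher in knockdown. Over all tested genes 1008 of 2383 were. Their median was 0.57, and beside 3.48% rises over all tested genes the mitochondrial list had 3 calls. These were ND1 (1.06), ND3 (0.74) and CoIII (0.60), subunits of the respiratory chain, and each was lost without wild-type replicate 2 or 3 or knockdown replicate 2 or 3 (adjusted p up to 0.23), CoIII also without knockdown replicate 1.

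On the list of amino acid and polyamine metabolism 4 of 18 tested genes fell and 1 rose, beside 6.55% and 3.48% of all tested genes. Of the 18 changes 10 were negative, as were 1375 of the 2383 over all tested genes. Ornithine decarboxylase 1 (Odc1), the entry to polyamine synthesis, had 1.37, 1.2 and 0.702 FPKM in knockdown, against 4.40, 3.89 and 6.00 FPKM in wild type (log2 change -1.46 ± 0.19, adjusted p = 0.000163). Mtap (CG4802), which salvages methionine from the polyamine by-product methylthioadenosine, fell with it (-0.65 ± 0.12, adjusted p = 0.00411), as did Gs1 above. The rise was of cystathionine gamma-lyase (Eip55E, 0.87 ± 0.20), lost without wild-type replicate 3 or knockdown replicate 3 (adjusted p up to 0.058).

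**Figure D3:**
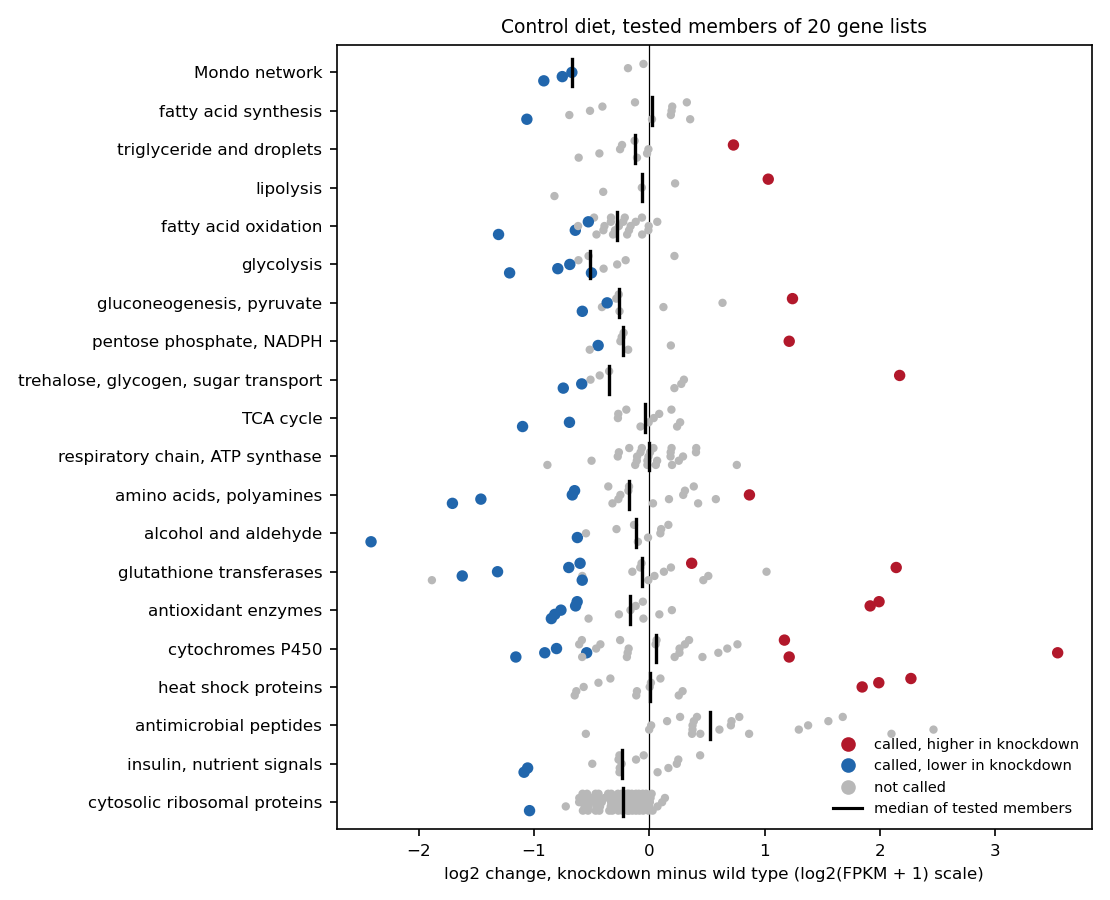
Log2 change (knockdown minus wild type, log2(FPKM + 1) scale) of the tested members of 20 gene lists, one point per gene, called rises in red, called falls in blue and the median as a black bar. Glycolysis and the Mondo network, which includes the knockdown target dmondo, have the lowest medians (-0.51 and -0.67). Antimicrobial peptides have the highest (0.53) with no called member, and detoxification lists hold calls in both directions.

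Detoxification and redox lists held called genes in both directions, beside 3.48% rises and 6.55% falls over all tested genes. Of 19 tested glutathione transferases 2 rose and 5 fell; of 15 antioxidant genes 2 rose and 5 fell; and of 27 cytochromes P450 3 rose and 4 fell. The glutathione peroxidase homologue PHGPx had 32.3, 28.9 and 31.9 FPKM in knockdown, against 50.5, 62.1 and 57.9 FPKM in wild type (log2 change -0.85 ± 0.11, adjusted p = 0.000232). Methionine sulfoxide reductase A (listed as Eip71CD), which repairs oxidised methionine, fell by 0.82 ± 0.18 (adjusted p = 0.0105). Among the P450 genes Cyp12a4, a mitochondrial P450, rose (1.21 ± 0.21), while Cyp4e2 (-0.91 ± 0.16) and Cyp310a1 (-0.54 ± 0.09) fell. Cyp4e2 and Cyp4e3, of the same subfamily, thus moved in opposite directions.

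Single libraries set several of these counts. In every fit with 1 library left out, the glutathione transferase calls kept were GstD3 and GstD1, the antioxidant calls kept were both peroxiredoxins, PHGPx and Eip71CD, and the P450 calls kept were Cyp4e3, Cyp12a4, Cyp310a1, Cyp4e2 and Cyp4d1. GstD10 (-1.32) was lost without wild-type replicate 2 or 3 (adjusted p up to 0.053) and GstE8 (-0.58) without wild-type replicate 1 or 3 or knockdown replicate 1 (up to 0.093). Of the alcohol and aldehyde list, Adh and the sorbitol dehydrogenase Sodh-1 (-0.62) fell among 10 tested genes. Of 8 metal-handling genes the iron regulatory protein Irp-1B rose (0.49). Over all tested genes 6.55% fell and 3.48% rose. Sodh-1 was lost without wild-type replicate 2 or 3 or knockdown replicate 2 or 3 (adjusted p up to 0.14) and Irp-1B whichever was left out. Delta-class transferases lie in a cluster of similar genes, so their reads may be shared.

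Of 15 tested heat shock genes 3 rose and none fell, where 3.48% of all tested genes rose. All 3 belong to the stress-induced Hsp70B cluster. Hsp70Bb had 7.24, 5.81 and 5.26 FPKM in knockdown, against 0.687, 0.394 and 0.331 FPKM in wild type, a mean 13.0 times as high in knockdown (log2 change 2.27 ± 0.12, adjusted p = 3.74e-08). Hsp70Ba (1.99 ± 0.12) and Hsp70Bc (1.85 ± 0.11) rose alike, but these genes are near-identical copies, so they count as 1 signal. Hsp70Ab, of the separate Hsp70A pair, had 1.22, 0.617 and 0.355 FPKM in knockdown and 0.145, 0.0531 and 1.21 FPKM in wild type, which overlapped (0.29, adjusted p = 0.63). The small heat shock gene Hsp27 had 14.0, 8.79 and 3.85 FPKM in knockdown and 11.6, 9.23 and 17.03 FPKM in wild type, which overlapped (-0.57, adjusted p = 0.35). No gene was called among 24 ER chaperone and translocon genes or among 5 of the COPI coat.

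Antimicrobial peptides were higher in knockdown without passing the test. Of 22 tested peptide genes 20 had positive changes, with a median of 0.53, none was called, and 8 lay higher in knockdown without overlap (8.94% of all tested genes). Drosocin (Dro) had 5.56, 36.3 and 42.7 FPKM in knockdown and 2.85, 5.44 and 1.55 FPKM in wild type (log2 change 2.47 ± 0.86, adjusted p = 0.0961). Attacin A (AttA) had 7.37, 12.9 and 26.2 FPKM in knockdown and 2.55, 3.51 and 1.5 FPKM in wild type (2.10 ± 0.80, adjusted p = 0.127). The spread between the knockdown libraries was wide for both, with replicate 1 lowest. Of 15 immune recognition genes TepIV rose (0.69) and PGRP-SD fell (-0.71), beside 3.48% rises and 6.55% falls over all tested genes. Each call was lost without wild-type replicate 3 (adjusted p 0.087 and 0.061). The TepIV call was also lost without wild-type replicate 1 or 2 or knockdown replicate 3.

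Among nutrient signals of the fat body, CCHa2 and Thor fell. CCHa2 (listed as CG14375), a peptide hormone that tells the brain of the nutritional state, had 2.49, 1.68 and 1.08 FPKM in knockdown, against 5.44, 4.45 and 4.29 FPKM in wild type (log2 change -1.09 ± 0.19, adjusted p = 0.0018). Thor, the translation inhibitor 4E-BP and a target of FoxO, had 90.0, 137 and 141 FPKM in knockdown, against 271, 234 and 248 FPKM in wild type (-1.06 ± 0.19, adjusted p = 0.00308). They were the 2 calls among 15 tested genes of insulin and nutrient signalling, where 6.55% of all tested genes fell. Both calls survived the removal of any 1 library. Own-barcode wild-type libraries overlapped the knockdown values of both, with Thor at 132, 101 and 106 FPKM. Of 7 tested ecdysone and stage genes the 1 call was the fall of Eip71CD given above.

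Few genes of protein synthesis were called. Of 84 tested cytosolic ribosomal protein genes 77 had negative changes, with a median log2 change of -0.23, and 1, RpLP0 of the ribosomal stalk, was called, a smaller share than the 6.55% of all tested genes that fell (-1.04 ± 0.26, adjusted p = 0.0237). That call was lost without wild-type replicate 2 or 3 or knockdown replicate 3 (adjusted p up to 0.12), while 15 ribosomal protein genes fell without knockdown replicate 1. Of 33 translation factors, the start-codon selecting eIF1 (CG17737) fell (-0.66 ± 0.14, adjusted p = 0.00755), and without knockdown replicate 1 the list had 8 falls and 1 rise. Of 33 proteasome genes 2 fell, Prosalpha1 and its near copy Prosalpha1R (listed as CG30382), about the share of all tested genes (6.55%). Neither held without wild-type replicate 1, 2 or 3 or knockdown replicate 2 or 3. None of 8 mitochondrial ribosomal proteins, and none of 9 storage and lipoprotein genes, was called.

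Markers of other tissues were checked, since dissected fat bodies can carry neighbours. Muscle markers summed to 14.9, 12.7 and 15.4 FPKM in knockdown and 21.4, 27.0 and 18.5 FPKM in wild type, and cuticle markers to 316, 236 and 267 FPKM in knockdown and 362, 355 and 323 FPKM in wild type; neither overlapped. Wild-type libraries with own barcodes lay the other way for muscle, at 7.81, 6.83 and 6.73 FPKM, below each knockdown library, and had 250, 205 and 192 FPKM of cuticle markers, within or below the knockdown range. Of 8 tested cuticle genes 6 fell, and of 5 muscle genes Mlc2 (-0.72) and Act57B (-0.64) fell. Over all tested genes 6.55% fell. Mlc2 was lost without wild-type replicate 2, and Act57B without any library but wild-type replicate 1. The 6 cuticle calls were all of Lcp genes. Cpr49Ac, a cuticle marker that was not called, reached 281 FPKM, while the next highest, Lcp1, reached 42.3 FPKM. Of the 97 cuticle markers 67 were at 0 in all 6 libraries. Midgut markers summed to 175, 116 and 162 FPKM in knockdown and 19.1, 163 and 73.6 FPKM in wild type, with 17 of 20 tested genes positive and none called.

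Hemocyte markers summed to 128, 324 and 306 FPKM in knockdown and 91.0, 332 and 75.0 FPKM in wild type, and salivary glue markers to 2132, 3265 and 4659 FPKM in knockdown and 2181, 2360 and 3655 FPKM in wild type. None of the 7 hemocyte and 10 glue genes tested was called. Among the hemocyte markers Nplp2 reached 314 FPKM and no other passed 19.9 FPKM, so the largest hemocyte sums rest mostly on Nplp2. Of 16 hemocyte markers, the crystal cell factor lz and the prophenoloxidase gene PPO3 (listed as CG42640) were at 0 throughout, while the prophenoloxidase genes proPO-A1 and CG8193 were detected, at up to 1.64 and 0.884 FPKM. Further, 3 of 7 neuronal markers and 5 of 8 gonad markers were listed at 0 in each of the 6 libraries. The neuronal marker Syt1 reached 12.4 FPKM, while no other neuronal marker passed 0.699 FPKM. None of the 9 markers of Malpighian tubule and trachea was at 0 throughout, and Uro reached 20.5 FPKM. The part that differences in these tissues played in the gene changes was not tested, and in whole-tissue RNA fewer cells of a type cannot be told apart from less RNA per cell.

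**Figure D4:**
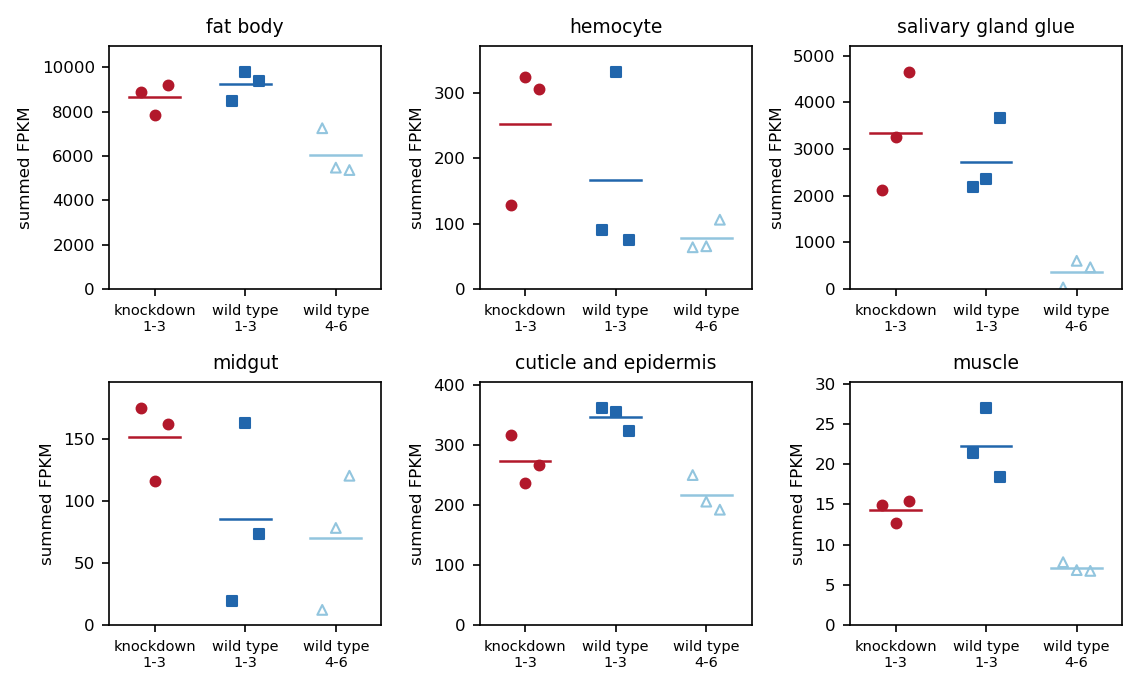
Summed FPKM of the fat body genes and of 5 marker lists of other tissues in each control-diet library, with knockdown 1 to 3 at left, wild type 1 to 3 in the middle and wild type 4 to 6 at right, and lines at the means. Cuticle and muscle sums are lower in each knockdown library than in wild type 1 to 3, hemocyte sums are uneven within both groups, and glue, fat body and muscle sums, with 2 of the 3 cuticle sums, are lowest in wild type 4 to 6.

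Against the same knockdown on high sugar, the control-diet effect was narrower. On high sugar 721 genes rose (30.3%) and 800 fell (33.6%), in a contrast that shares no library with the control-diet one. The effect differed between diets, by the interaction test, for 1295 genes (54.3%) and for 152 of the 239 genes called on the control diet. The high-sugar changes followed transcript length (Spearman rho over 2321 genes -0.444), which the control-diet changes did not (-0.018). With the length trend of each library removed, 1098 genes (47.3%) passed the interaction test; the part of length in the rest was not tested.

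The genes that rose most on the control diet also rose on high sugar, whereas the falls were mixed. All 12 leading rises were called upward on high sugar too, among them Cyp4e3 (log2 change 3.54 on the control diet, 3.03 with high sugar) and GstD3 (2.14 and 2.35). With length removed, 9 of the 11 with a known length were called upward, beside 29.3% of all genes tested so. Of the 12 leading falls 5 were called downward on high sugar, including CG31775 (-4.36 and -3.73) and Adh (-2.41 and -3.16). A further 3 were called upward, Lcp3, Lcp4 and GstD1. Over all tested genes 33.6% were called downward and 30.3% upward. With length removed, 6 of the 12 were called downward and 3 upward. GstD1 changed by -1.62 on the control diet and by 1.21 ± 0.23 on high sugar, a difference of -2.84 (adjusted p = 1.04e-05). Since these genes were chosen for the size of their control-diet change, a smaller change on the other diet is a description.

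Other genes named above also differed between the diets. Their values, like those of GstD1, come from the fit that kept the length trend, and high-sugar changes followed transcript length (rho -0.444). The part of length in them is not given here. The lipase gene bmm changed by 1.03 on the control diet, against -1.16 with high sugar (adjusted p of the difference 7.25e-06), and Pect by 0.73 and -1.1 (1.11e-05). Dcr-2 changed by 1.24 and -2.17 (2.42e-06), so Dcr-2 was higher in knockdown on the control diet and lower in knockdown on high sugar. Thor changed by -1.06 and -3.42 (2.55e-05), lower in knockdown on both diets. The Hsp70Bb change of 2.27 on the control diet, beside 2.34 with high sugar, gave no detectable difference (adjusted p = 0.796). Across all 83 rises, 41 were also called upward on high sugar and 25 downward, beside 30.3% and 33.6% of all tested genes. Of the 156 falls 49 were called downward and 37 upward, neither a larger share than over all tested genes. With length removed, 40 of the 78 rises with a known length were called upward and 22 downward. Of the 154 such falls 53 were called downward and 37 upward, where 29.4% and 29.3% of all genes tested so were.

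**Figure D5:**
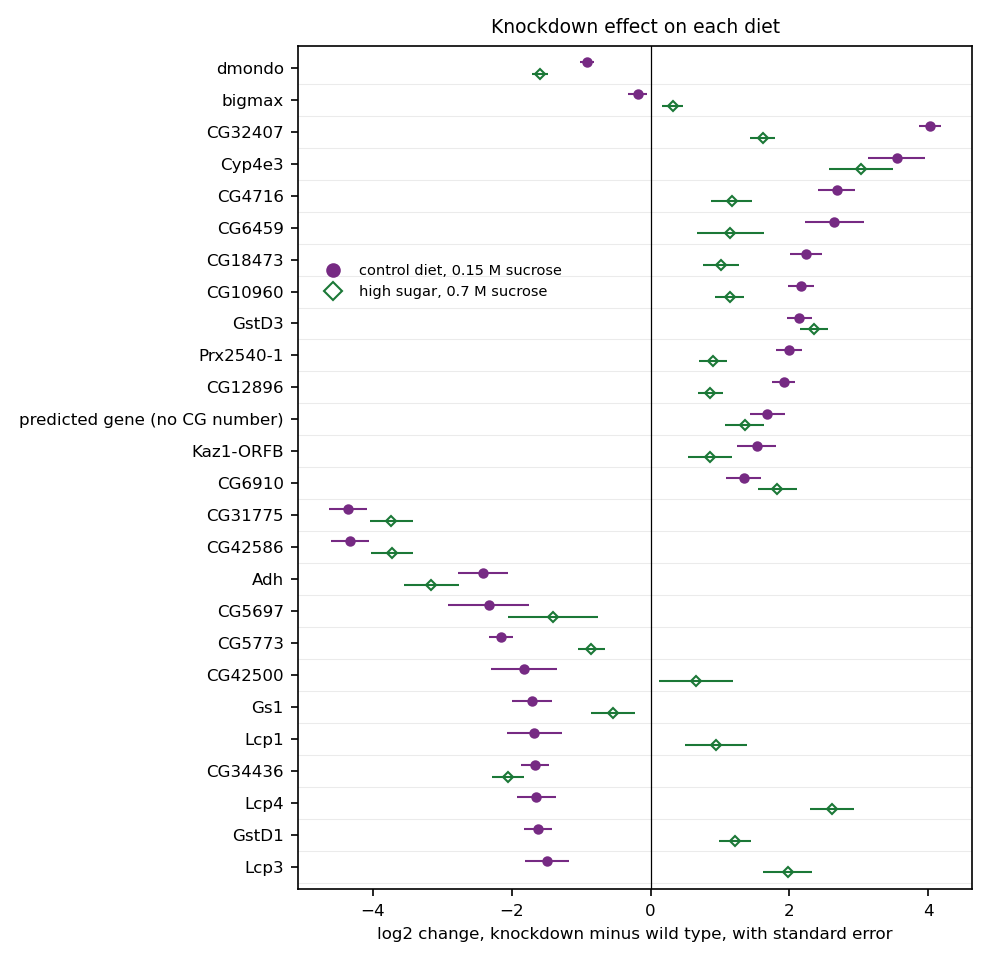
Log2 change (knockdown minus wild type) with its standard error for dmondo, bigmax and the 24 genes with the largest control-diet changes, with filled circles for the control diet and open diamonds for high sugar. The 12 rises lie to the right of 0 on both diets, while GstD1, Lcp3 and Lcp4 lie left of 0 on the control diet and right of 0 with high sugar, as do CG42500 and Lcp1, which were not called on high sugar.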

How the data were processed

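Fat body total RNA of Drosophila melanogaster larvae was sequenced, and the authors deposited 1 matrix of expression values. Reads were mapped with Bowtie 0.12.7 and TopHat 1.3.2 to dm3 and quantified with Cufflinks 1.1.0, per the submitters' processing notes. The file header names no unit. The deposited values were treated as FPKM, which leaves the depth unknown and allows no counting intervals, and any further scaling by the authors is not given in the sources used here. Of 14659 rows 13643 matched a current gene symbol and 4963 were 0 throughout.

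Values were tested as log2(FPKM + 1) with limma 3.58.1 (R 4.3.3) and empirical Bayes that was trended and robust. Genes with a mean of at least 1 over all 17 libraries entered, 1 mean was fitted per group and barcode layout (6 means), and Benjamini-Hochberg adjusted p under 0.05 over all tested genes was a call. The diet difference was tested as an interaction in the same fit. All libraries share the estimate of spread, and p-values measure only the spread between libraries.

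Named genes were dmondo, bigmax, the driver and interference genes, the 12 largest non-overlapping called changes each way among genes averaging 5 FPKM or more in the libraries compared, and up to 4 lowest-p members of each gene list. Cyp4d1, the mitochondrial genes and those under other observations were picked with their values in view. The members and the gene lists were chosen with earlier results of these data known. Alternatives covered pseudocount, minimum level, scaling, transcript length, barcode layout, replicate block and each library left out; 2 were chosen after seeing the data. The fit was tested on simulated data. No sequence or coordinate is given.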

Additional observations from a re-analysis of the deposited data

Results flagged for a closer look

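The knockdown effect differed between the diets for 15 genes among dmondo, bigmax and the 24 genes with the largest control-diet changes, by the interaction test of limma (control-diet minus high-sugar log2 change, adjusted p up to 0.0477). The difference was positive for dmondo (0.677), CG32407 (2.41), CG4716 (1.51), CG18473 (1.22), CG10960 (1.03), Prx2540-1 (1.09) and CG12896 (1.05). It was negative for bigmax (-0.505), CG5773 (-1.3), CG42500 (-2.48), Gs1 (-1.17), Lcp1 (-2.62), Lcp4 (-4.26), GstD1 (-2.84) and Lcp3 (-3.46). The positive dmondo difference is a smaller fall on the log2(FPKM + 1) scale: -0.91 with control food, against -1.59 with high sugar. That scale understates changes of low genes, and with a pseudocount of 0.1 the control-diet change of dmondo was -1.77. The difference therefore does not show that a smaller share of the transcript was removed with control food. With the length trend removed the dmondo difference was -0.25, which did not pass (adjusted p = 0.239). Of the leading genes with a known length, 5 of 11 rises and 6 of 12 falls passed the interaction test with the trend removed.

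The summed hemocyte markers of wild-type control replicate 2, at 332 FPKM, stood apart from the other 5 wild-type control libraries, which lay between 63.8 and 106 FPKM. Such a gap is found by chance in about 1 in 20 groups, and several genes and sums were checked in this way. The largest hemocyte sums rest mostly on 1 gene, Nplp2, with up to 314 FPKM in the 6 libraries compared. No other member passed 19.9 FPKM there. Knockdown replicates 2 and 3 had similar sums, 324 and 306 FPKM.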

How the results depend on the processing

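The count of 239 calls stayed within 1.5 times under 8 alternatives (216 to 322). It was 115 with a minimum mean of 5 FPKM, 83 in a fit of the 6 libraries alone, 134 with an additive barcode term and all wild-type libraries (72 up and 62 down), 121 with all wild-type libraries and no such term (75 up and 46 down), and 135 with shared-barcode libraries only, chosen after seeing the data. Leaving out 1 library gave 120 to 303 calls. The diet interaction gave 436 genes at a minimum mean of 5 and 1024 to 1294 with 1 library left out; other settings gave 1098 to 1258. The dmondo change stayed between -1.77 and -0.77 in all settings (adjusted p up to 0.0084), and -0.96 to -0.85 with 1 library left out. With all wild-type libraries and no barcode term, CG42500 (1.40), Lcp1 (0.82), Lcp4 (0.76), Lcp3 (0.070) and Act57B (0.14) turned positive; the median of all genes was 0.11 there, and the cause was not tested. In that same setting Gapdh2, Pepck, Etf-QO, CCHa2, Thor, PHGPx, muc and eIF1 were not called (adjusted p up to 0.86). AGBE, Mtap, Eip71CD, Cyp310a1, Cyp4e2 and CG34436 were not called there either. The fit of the 6 libraries alone did not call Gapdh2, PyK, Idh, muc, eIF1, AGBE, Mtap, Eip71CD, Cyp310a1, Cyp4e2, Cyp12a4 or Pect. Replicate numbers did not pair the samples (correlation of same-numbered deviations 0.0898, 0.0117 and -0.24), and with the replicate block 105 genes were called. The unknown depth limits what can be said of low genes such as dmondo, sugarbabe and PyK.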

Other observations

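A few genes outside the lists, chosen after their values were seen, belong to pathways described above. Ethanolamine kinase (eas) works just before Pect in phosphatidylethanolamine synthesis, and it had 6.35, 6.6 and 8.52 FPKM in knockdown, against 3.53, 2.95 and 3.06 FPKM in wild type. It rose by 0.96 ± 0.11 (log2, limma, adjusted p = 6.05e-05), and like Pect it changed the other way on high sugar (-0.97, length trend not removed). Atg7, the activating enzyme of autophagy conjugation, had 9.19, 5.40 and 6.93 FPKM in knockdown, against 2.78, 2.24 and 2.15 FPKM in wild type (1.25 ± 0.16, adjusted p = 0.000163). In both genes the knockdown libraries lay above all 6 wild-type libraries.

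Antizyme (Oda), the inhibitor of ornithine decarboxylase, had 12.4, 13.8 and 12.2 FPKM in knockdown, against 26.5, 22.7 and 26.2 FPKM in wild type (-0.92 ± 0.12, adjusted p = 0.0002), so it fell beside its target Odc1.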
